A study of Homo sapiens with 4 samples.

Results

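The kinesin superfamily was described here as the 42 genes, of 59050 in the deposited count table, whose symbol is KIF followed by digits and an optional letter, together with KIFC1, KIFC2 and KIFC3. The members fall into 11 mitotic motors (KIF2C, KIF4A, KIF11, KIF14, KIF15, KIF18A, KIF18B, KIF20A, KIF20B, KIF22 and KIFC1) and 31 other kinesins, among them the cargo motors, ciliary kinesins and microtubule regulators. A further mitotic motor of the list, KIF23, was not analysed here. RNA was measured in RCC4, an established human line of clear cell renal cell carcinoma (ccRCC), after silencing of PML, the scaffold protein of the nuclear bodies that bear its name. Both groups carried a doxycycline-inducible lentiviral short hairpin RNA, directed at PML (shPML) or a control (shCtrl), and both received 100 ng/ml doxycycline for 96 h. There were 2 libraries of each group, 1 from each of 2 experiments with separate infections, and each library came from a bulk infected population. The replicate number of a library was taken to name its experiment, although the labels do not state which libraries shared an experiment.

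Kinesins are motor proteins that use ATP to move along microtubules or to take them apart at their ends. In mitosis a set of them builds the bipolar spindle, aligns the chromosomes and organises the midzone for cytokinesis, and their transcripts in dividing cells rise toward G2 and M phase. Much of that timing is attributed to the DREAM and MuvB complexes, which bind a CHR element (TTTGAA) near the start site, usually next to CCAAT boxes bound by NF-Y. Many other kinesins move vesicles, organelles and intraflagellar cargo throughout the life of the cell. The class of other kinesins used here is broader. It also holds the microtubule depolymerases KIF2A and KIF2B, the centriole depolymerase KIF24 and KIF4B, a copy of KIF4A.

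The promoters of the mitotic motors were set beside those of the other kinesins in windows from 250 bases before to 50 bases after the RefSeq start site (GRCh38.p14), and windows were found for 11 of 11 mitotic motors and 22 of 31 other kinesins. A gene was counted if any of its windows held the letters, and KIF22 had another window that held neither motif. TTTGAA, or its reverse complement TTCAAA, was present for 8 of 11 mitotic motors (72.7%), namely KIF4A, KIF11, KIF14, KIF15, KIF18A, KIF18B, KIF20B and KIFC1. The same letters were present for 2 of 22 other kinesins (9.09%), KIF4B and KIF5B, and in 15.2% of all 35116 windows. In windows of genes that were tested for expression the share was 10.4%. CCAAT, or ATTGG on the opposite strand, was present for 9 of 11 mitotic motors (81.8%), for 8 of 22 of the others (36.4%) and in 34.6% of all windows. Within the mitotic windows TTTGAA lay between positions -35 and 31 from the start site, and CCAAT between -131 and -22. An E2F site variant, TTTGGCGC, was in the KIF15 window alone among the mitotic motors, against 0.652% of all windows. The variants TTTCCCGC, TTTCGCGC and TTTGCCGC were present for 0 of 11 mitotic motors and in 1.63%, 0.515% and 0.607% of all windows. Both strands were searched and none of the matches in the printed windows overlapped.

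The windows of the 5 mitotic motors with the largest fitted differences in RNA level are given to show this arrangement, 5′ to 3′ on the strand of the gene, with the TTTGAA motif, the CCAAT box and their reverse complements in capitals. They are KIF18B at chr17:44947724-44948023 (minus strand), KIF18A at chr11:28108107-28108406 (minus strand), KIF2C at chr1:44739587-44739886 (plus strand), KIF14 at chr1:200620702-200621001 (minus strand) and KIF4A at chrX:70289854-70290153 (plus strand).
KIF18B: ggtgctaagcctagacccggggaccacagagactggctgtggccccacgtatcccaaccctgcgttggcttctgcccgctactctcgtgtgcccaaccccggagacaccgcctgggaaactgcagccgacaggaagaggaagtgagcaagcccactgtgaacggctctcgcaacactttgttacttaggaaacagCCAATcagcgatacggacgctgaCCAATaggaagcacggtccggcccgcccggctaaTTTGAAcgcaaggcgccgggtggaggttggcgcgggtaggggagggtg
KIF18A: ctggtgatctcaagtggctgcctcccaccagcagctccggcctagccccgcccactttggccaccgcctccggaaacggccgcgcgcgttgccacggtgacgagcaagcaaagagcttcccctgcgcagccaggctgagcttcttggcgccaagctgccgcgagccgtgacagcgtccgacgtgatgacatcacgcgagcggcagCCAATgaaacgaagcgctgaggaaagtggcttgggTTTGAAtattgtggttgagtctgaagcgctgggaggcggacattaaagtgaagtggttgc
KIF2C: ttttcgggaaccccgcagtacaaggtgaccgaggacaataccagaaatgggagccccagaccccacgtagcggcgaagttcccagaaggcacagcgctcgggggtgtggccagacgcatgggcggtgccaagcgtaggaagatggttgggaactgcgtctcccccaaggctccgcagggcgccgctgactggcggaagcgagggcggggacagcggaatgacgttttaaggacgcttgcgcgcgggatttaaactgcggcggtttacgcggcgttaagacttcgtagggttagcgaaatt
KIF14: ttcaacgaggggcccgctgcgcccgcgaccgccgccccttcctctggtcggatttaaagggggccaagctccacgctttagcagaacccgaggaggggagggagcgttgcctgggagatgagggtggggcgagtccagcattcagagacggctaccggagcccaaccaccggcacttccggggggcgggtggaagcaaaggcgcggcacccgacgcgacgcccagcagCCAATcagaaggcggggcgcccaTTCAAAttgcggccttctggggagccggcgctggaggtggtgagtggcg
KIF4A: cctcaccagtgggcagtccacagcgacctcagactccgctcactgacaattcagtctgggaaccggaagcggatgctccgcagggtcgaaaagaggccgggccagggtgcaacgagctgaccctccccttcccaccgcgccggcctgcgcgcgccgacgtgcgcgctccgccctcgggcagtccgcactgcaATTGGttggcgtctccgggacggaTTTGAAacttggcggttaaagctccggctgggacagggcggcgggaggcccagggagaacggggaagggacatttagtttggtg
KIF18B held a pair of CCAAT boxes at positions -55 and -32 and TTTGAA at 3. KIF18A held CCAAT at -45 and TTTGAA at -10. KIF14 and KIF4A each held 1 of both motifs, at -22 and 2 and at -58 and -34. KIF2C, whose RNA differed as much as that of the others, held neither motif in this window, where variants of TTTGAA were not searched. These matches describe letters and were not tested for binding.

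The libraries held between 27781193 and 69870617 assigned reads, of which 49651 to 118256 belonged to kinesins, and the 10 most abundant genes took 7.26% to 7.49%. PML itself was at 93.1 and 136.0 CPM (read counts scaled to library size, with trimmed mean of M-values factors) in shCtrl and at 54.9 and 87.6 CPM in shPML, a log2 fold change of -0.69 (SE 0.30) with an adjusted p of 0.32 in edgeR's quasi-likelihood test. With the experiment as a replicate block in edgeR the adjusted p was 4.19e-07. The renal epithelial markers PAX8, PAX2, CA9, KRT8, KRT18, KRT19 and CDH16 were present in every library, with PAX8 at 306.6 and 413.1 CPM in shCtrl and at 301.7 and 426.8 CPM in shPML. One library stood apart. shPML replicate 2 held 140.8 CPM of leukocyte markers (LYZ 85.4, CD14 42.8 and PTPRC 12.6 CPM, with CD3E at 0), against 0.11 to 0.18 CPM in the other libraries, and 4.11 CPM of PECAM1. Fibroblast markers summed to 14.7 and 25.8 CPM in shCtrl and to 11.7 and 14.4 CPM in shPML, with DCN and LUM at 0 in every library. The part of these reads in the kinesin values was not tested. Main results without a block are therefore also given without shPML replicate 2. No fit with the block was made without that library. The values of experiment 1 do not use it.

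The first comparison asked how much of the kinesin RNA belonged to the mitotic motors in each library. On a per-length scale (CPM per kilobase of exon, RPKM), the mitotic motors summed to 267.2 and 252.5 RPKM in shCtrl and to 138.3 and 124.1 RPKM in shPML. The other kinesins summed to 198.3 and 215.2 RPKM in shCtrl and to 198.0 and 236.3 RPKM in shPML. Mitotic motors thus made up 57.4% and 54.0% of summed kinesin RNA in shCtrl and 41.1% and 34.4% in shPML. The mitotic sums of the groups did not overlap, and those of the other kinesins did. In both experiments the mitotic sum was lower with shPML. In bulk RNA, fewer cells in G2 or M phase and less kinesin RNA per such cell cannot be told apart. With 2 libraries against 2, an exact permutation test of a single value cannot go below p = 0.333, so no p is given for these sums.

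**Figure D1:**
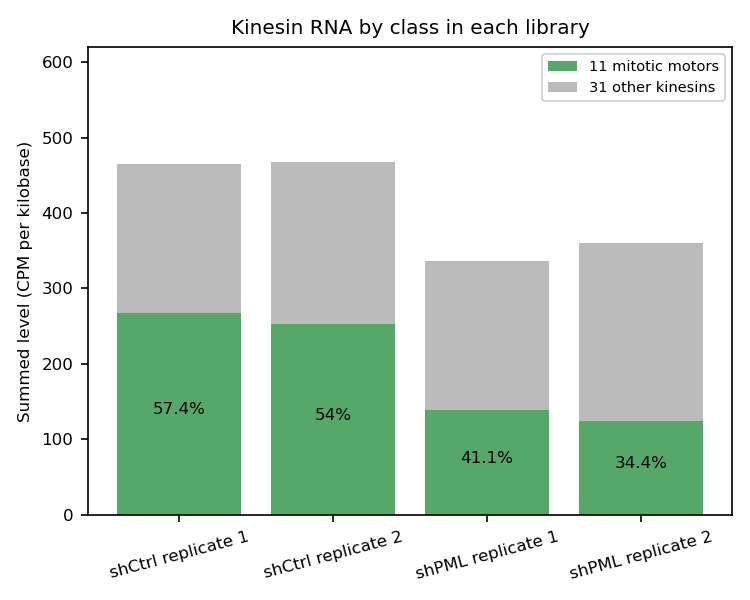
Summed kinesin RNA in CPM per kilobase of exon (vertical axis) in each of the 4 libraries, with the 11 mitotic motors in green, the 31 other kinesins in grey and the mitotic percentage printed in each bar. The mitotic part is 267.2 and 252.5 in shCtrl and 138.3 and 124.1 in shPML, while the grey part ranges from 198.0 to 236.3.

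Gene by gene, each of the 11 mitotic motors was lower in both shPML libraries than in both shCtrl libraries, an arrangement met by 24.9% of the 16516 genes tested. The fitted log2 fold changes ran from -1.36 (KIF18B) to -0.59 (KIF22), with a median of -1.03 beside a median of 0.01 over all genes tested. In the edgeR fit without a block, 0 of 11 mitotic motors were called (adjusted p under 0.05, fold change beyond 0.5 in size on the log2 scale), where 0.333% of all genes were called lower. Their adjusted p-values in edgeR ran from 0.0618 to 0.178, and 11 of 11 had an unadjusted p under 0.05, against 10.1% of all genes that did so and were lower. With the experiment as a replicate block in edgeR, 11 of 11 fell, against 10.5% of all genes called lower. DESeq2 without a block called 10 of 11 lower, all but KIF22, against 5.58% of all genes. DESeq2 with the block called 11 of 11, against 9.62%.

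Without shPML replicate 2, edgeR called 0 of 11 and gave 10 of 11 an unadjusted p under 0.05, a median of -0.92 on the log2 scale and a smallest adjusted p of 0.175. DESeq2 without that library called 5 of 11 lower, against 3.16% of all genes, with a median of -0.91.

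**Figure D2:**
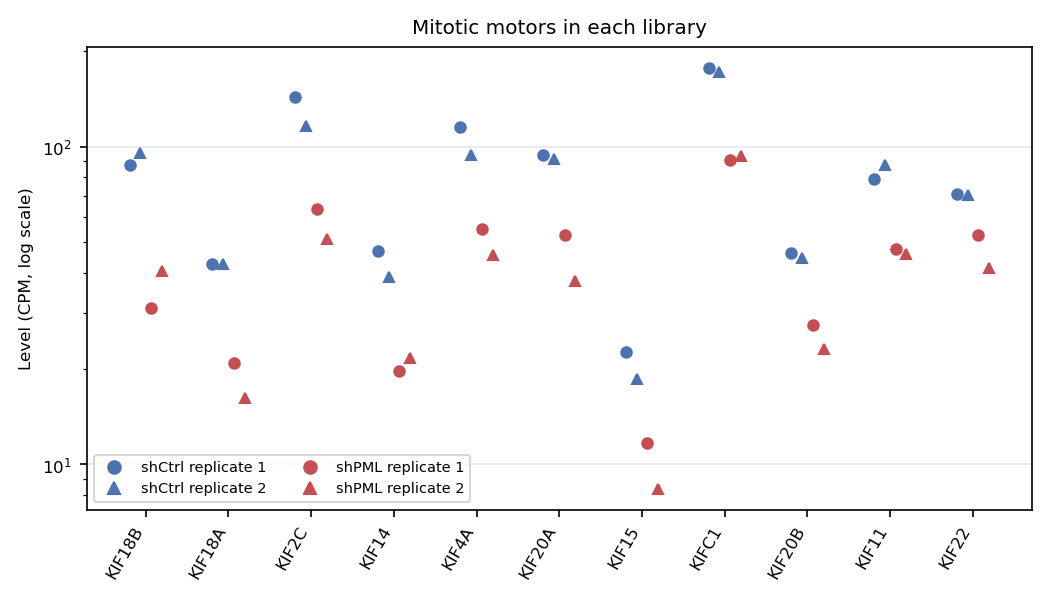
Level of each mitotic motor (CPM, log scale, vertical axis) in shCtrl (blue) and shPML (red), with circles for replicate 1 and triangles for replicate 2, ordered by fold change. For each of the 11 genes both red points lie below both blue points, from KIF18B at a log2 fold change of -1.36 to KIF22 at -0.59.

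KIF11 (Eg5), KIF15 and KIFC1 act on the spindle and its poles. KIF11, the tetrameric motor that slides antiparallel microtubules, was at 79.3 and 87.3 CPM in shCtrl and 47.5 and 46.0 CPM in shPML. Its log2 fold change was -0.83 (SE 0.15, edgeR adjusted p = 0.0774, with the block 2.79e-08). KIF15, which maintains bipolarity alongside KIF11, was the scarcest mitotic motor per length and stood at 22.5 and 18.5 CPM in shCtrl and 11.7 and 8.40 CPM in shPML. KIFC1, a minus-end motor that focuses spindle poles, was the most abundant kinesin per length in shCtrl, at 73.9 and 71.9 RPKM against 41.2 and 56.9 RPKM for KIFC3, while in shPML it was at 37.9 and 39.0 RPKM and KIFC3 at 33.1 and 49.5 RPKM. It was at 176.7 and 172.0 CPM in shCtrl and at 90.7 and 93.3 CPM in shPML, a log2 fold change of -0.92 (SE 0.14, edgeR adjusted p = 0.0657, with the block 7.86e-11). The shPML levels of KIF11 and KIFC1 differed little between experiments, and those of KIF15 differed more.

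Among the motors that move chromosomes or shorten microtubules, KIF18B, which limits astral microtubule length, had the largest fitted difference of the 11, although in experiment 2 KIF18A and KIF20A had lower log2 ratios (-1.39 and -1.28 against -1.23) and without shPML replicate 1 KIF2C, KIF4A, KIF15, KIF18A and KIF20A had larger fitted differences. KIF18B was at 87.6 and 95.5 CPM in shCtrl and at 31.0 and 40.7 CPM in shPML (means 91.6 ± 5.59 and 35.8 ± 6.83, SD, n = 2 each). The log2 fold change was -1.36 (SE 0.19, edgeR adjusted p = 0.0618, with the block 9.38e-15). Its relative KIF18A, which damps chromosome oscillations at the metaphase plate, was at 42.8 and 42.6 CPM in shCtrl and at 20.9 and 16.2 CPM in shPML, a log2 fold change of -1.20 (SE 0.19). KIF2C (MCAK), a depolymerase that corrects kinetochore attachments, was at 142.8 and 116.2 CPM in shCtrl and at 63.5 and 51.3 CPM in shPML. Its ratio was nearly the same in the 2 experiments, -1.17 and -1.18 on the log2 scale. The chromokinesin KIF4A, which acts on chromosome arms and the midzone, was at 114.9 and 94.3 CPM in shCtrl and at 55.2 and 45.8 CPM in shPML, with log2 ratios of -1.06 and -1.04. The other chromokinesin, KIF22, was at 71.1 and 70.6 CPM in shCtrl and at 52.5 and 41.6 CPM in shPML. KIF22 had the smallest difference of the class, a log2 fold change of -0.59 (SE 0.17, edgeR adjusted p = 0.178, with the block 4.60e-05). Leaving out 1 library moved its log2 fold change between -0.77 (without shPML replicate 1) and -0.43 (without shPML replicate 2).

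Among the motors of cytokinesis, KIF20A, which brings the chromosomal passenger complex to the midzone, was at 93.9 and 91.5 CPM in shCtrl and at 52.8 and 37.7 CPM in shPML. Its paralog KIF20B was at 46.3 and 44.5 CPM in shCtrl and at 27.5 and 23.1 CPM in shPML. KIF14, a midbody motor that recruits citron kinase, was at 46.9 and 38.8 CPM in shCtrl and at 19.7 and 21.6 CPM in shPML. Their log2 fold changes were -1.03 (SE 0.21), -0.84 (SE 0.17) and -1.05 (SE 0.18), and the groups did not overlap for any of them. The ratio of KIF20A was lower in experiment 2 than in experiment 1 (log2 values -1.28 and -0.83), while KIF14 went the other way (-0.84 and -1.25). CENPE, the kinetochore kinesin that the symbol rule leaves out, was at 38.4 and 32.6 CPM in shCtrl and at 19.8 and 19.6 CPM in shPML. Exons of another gene cover at most 6.33% of the exon bases of any mitotic motor (KIF22).

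Within experiment 1 the mitotic log2 ratios of shPML to shCtrl ran from -1.50 to -0.44 with a median of -0.96, and within experiment 2 from -1.39 to -0.76 with a median of -1.04. All 11 were lower in both, as were 37.1% of all genes tested. Of the 24 other kinesins tested, 6 were lower in both experiments, 10 were higher in both, beside 37% of all genes, and 8 went opposite ways, with median log2 ratios of -0.04 and 0.16. In experiment 1, 5 other kinesins lay below the least lowered mitotic motor, namely KIF1A, KIF9, KIF17, KIF21B and KIF24. In experiment 2 only KIF1A did. A ratio within 1 experiment compares 1 library with 1 and carries no test.

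**Figure D3:**
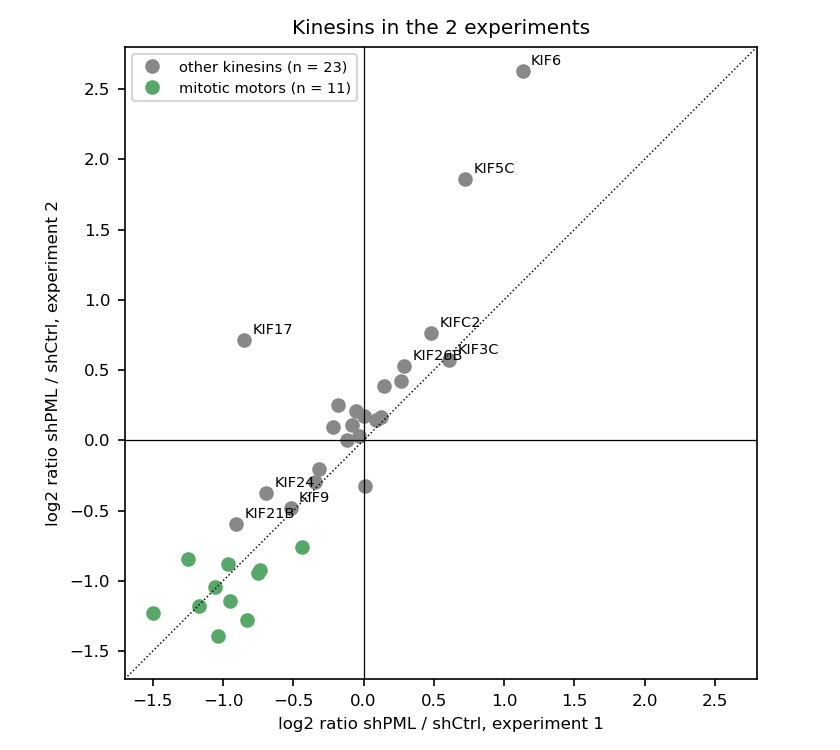
log2 ratio of shPML to shCtrl in experiment 1 (horizontal axis) against experiment 2 (vertical axis) for 11 mitotic motors (green) and 23 other kinesins (grey), with the dotted line marking equal ratios and KIF1A left out because it had 0 counts in shPML replicate 1. The green points lie between -1.50 and -0.44 on the horizontal axis and between -1.39 and -0.76 on the vertical axis, and most grey points lie near 0.

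Mitotic motors were also set against paralogs of the same subfamily. This was done for each mitotic motor with a tested subfamily relative among the other kinesins. Its level per length was divided by that of the most abundant such relative. In the kinesin-13 subfamily, KIF2C exceeded KIF2A, which shortens microtubules in interphase as well, by 2.02 and 1.98 on the log2 scale in shCtrl and by 0.76 and 0.66 in shPML. In the kinesin-14 subfamily, KIFC1 exceeded KIFC3 by 0.84 and 0.34 in shCtrl, and the values in shPML were 0.20 and -0.34. For KIF4A against KIF21A the log2 ratios were 1.596 and 1.797 in shCtrl and 0.62 and 0.64 in shPML. KIF14 against KIF1C stood at -1.67 and -2.27 in shCtrl and at -2.92 and -3.28 in shPML. KIF15 against KIF12 stood at -1.80 and -1.96 in shCtrl and at -2.70 and -3.31 in shPML. In all 5 pairs both shPML values were below both shCtrl values. Each of these mitotic motors had that arrangement on its own, as did 24.9% of all genes tested, so the pairs are not a separate result. No share over other gene pairs was computed.

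Of the 31 other kinesins, 24 were tested and 7 (KIF2B, KIF4B, KIF5A, KIF19, KIF25, KIF26A and KIF28P) stayed below the filter on low counts, with at most 8 counts in any library and KIF2B at 0 in all. KIF4B is an intronless copy of KIF4A, so its reads cannot be assigned with certainty. For the tested other kinesins the log2 fold changes centred on 0.02 (median). In edgeR without a block 0 were called lower and 0 higher, against 0.333% and 0.0787% of all genes. At an unadjusted p under 0.05, 2 were lower and 3 higher, against 1669 and 1289 of 16516 genes. DESeq2 without a block called 0 in either direction, against 5.58% and 3.6% of all genes. With the replicate block in edgeR, 2 of 24 fell (KIF1A and KIF21B, 8.33%) and 4 of 24 rose (KIF3C, KIF5C, KIF6 and KIFC2, 16.7%), against 10.5% and 8.57% of all genes. With the block in DESeq2 the counts were 1 lower (KIF21B) and 2 higher (KIF3C and KIFC2), against 9.62% and 7.41%. Both shPML values were under both shCtrl values for 4 of 24 (16.7%) and over them for 7 of 24 (29.2%), against 24.9% and 23.1% of all genes.

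The most abundant other kinesins per length were not called. KIFC3, a minus-end motor of epithelial junctions and the Golgi apparatus, had the highest level of the class at a mean of 45.2 RPKM and was at 203.0 and 280.3 CPM in shCtrl and at 163.1 and 243.8 CPM in shPML. KIF5B, the ubiquitous conventional kinesin heavy chain, was at 167.4 and 178.3 CPM in shCtrl and at 163.5 and 182.4 CPM in shPML. KIF1C, a vesicle motor, was at 161.6 and 202.9 CPM in shCtrl and at 162.1 and 228.3 CPM in shPML. For these 3 genes the groups overlapped, although KIFC3 was lower with shPML within both experiments (log2 ratios -0.32 and -0.20). Their log2 fold changes were -0.25 (SE 0.27), 0.00 (SE 0.15) and 0.10 (SE 0.23), and none was called in either edgeR fit. With the block KIFC3 had an edgeR adjusted p of 0.0391 and stayed uncalled by the fold threshold alone.

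A few other kinesins stood apart from zero. KIF3C, a subunit of the heterotrimeric kinesin-2 motor, was at 65.4 and 86.0 CPM in shCtrl and at 99.6 and 127.6 CPM in shPML, a log2 fold change of 0.59 (SE 0.22, edgeR adjusted p = 0.249, with the block 1.18e-05). Its kinesin-2 relatives went another way or varied, since KIF3B had log2 ratios of -0.35 and -0.30 in the 2 experiments and KIF3A of 0.01 and -0.33. KIFC2, a minus-end motor best known in neurons, was at 47.6 and 60.7 CPM in shCtrl and at 66.3 and 102.8 CPM in shPML, a log2 fold change of 0.64 (SE 0.26, edgeR adjusted p = 0.288, with the block 1.45e-05). Without shPML replicate 2 the log2 fold change of KIFC2 was 0.29. FOXH1 on the opposite strand overlaps 21.7% of the exon bases of KIFC2, and the strand setting of the counting is not given in the sources used here. KIF21B, which tunes microtubule growth, was at 15.3 and 16.5 CPM in shCtrl and at 8.15 and 10.95 CPM in shPML, a log2 fold change of -0.74 (SE 0.22, edgeR adjusted p = 0.184, with the block 1.17e-04). Its paralog KIF21A was at 57.5 and 41.1 CPM in shCtrl and at 54.5 and 44.4 CPM in shPML, and those groups overlapped.

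The remaining calls with the block rested on few reads. KIF6, a cilium-associated kinesin, had 52 and 11 counts in shCtrl and 151 and 52 in shPML, a log2 fold change of 1.64 (SE 0.64, edgeR adjusted p = 0.27, with the block 0.0035). It was 2.72 without shCtrl replicate 1 and 1.05 without shCtrl replicate 2. KIF5C, a mainly neuronal conventional kinesin, had 49 and 22 counts in shCtrl and 107 and 61 in shPML, a log2 fold change of 1.27 (SE 0.49, edgeR adjusted p = 0.263, with the block 0.0414). KIF1A, a mainly neuronal vesicle motor, had 14 and 18 counts in shCtrl and 0 and 1 in shPML, and 3 counts in shPML replicate 1 would equal 0.0419 CPM. The pooled log2 ratio of KIF1A over both experiments was -5.14 with a 95% exact counting interval of -10.49 to -2.56 that covers counting error only. DESeq2 with the block did not call KIF5C or KIF6 and did not test KIF1A. Among uncalled members, KIF7, KIF13A and KIF26B were above shCtrl in both shPML libraries (log2 fold changes 0.26, 0.34 and 0.42). KIF9 and KIF24 were below (-0.50 and -0.55). KIF7 had at most 41 counts. With the block, edgeR gave KIF3B, KIF13A and KIF26B adjusted p-values of 0.022, 0.0090 and 0.0089, and the fold threshold kept them uncalled. Antisense and neighbouring exons overlap 16.4% of the exon bases of KIF9.

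**Figure D4:**
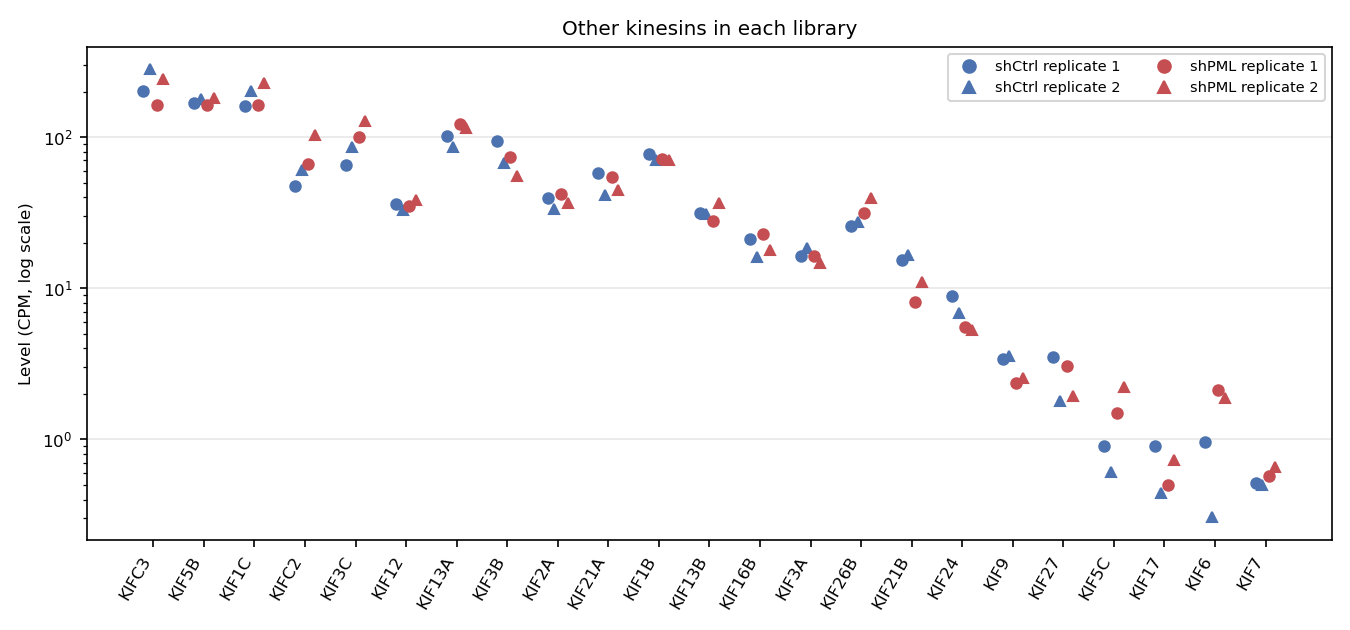
Level of the 23 other kinesins tested with reads in every library (CPM, log scale, vertical axis), ordered by level per length, in shCtrl (blue) and shPML (red) with circles for replicate 1 and triangles for replicate 2. The groups overlap for KIFC3, KIF5B and KIF1C at the left, both red points are above for KIF3C and KIFC2, and both are below for KIF21B.

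The partners of both kinds of motor were then compared from lists of genes that act with them. Of 24 partners of mitotic motors, CENPE among them, 23 were tested, and NUSAP1 was not, with at most 12 counts. A negative log2 fold change was found for 22, beside 8110 of 16516 genes, and the median was -0.94. PRC1, among these 22, had at most 78 counts in a library. In edgeR 1 was called lower without a block (BIRC5) and 18 with it, against 0.333% and 10.5% of all genes. BIRC5 (survivin), part of the chromosomal passenger complex that KIF20A carries, was at 156.6 and 171.2 CPM in shCtrl and at 58.6 and 55.3 CPM in shPML, a log2 fold change of -1.52 (SE 0.15, edgeR adjusted p = 0.0484). AURKB, the kinase of that complex, was at 101.3 and 101.5 CPM in shCtrl and at 46.9 and 40.2 CPM in shPML. AURKA, a kinase of spindle poles, was at 123.4 and 117.3 CPM in shCtrl and at 63.8 and 54.8 CPM in shPML. HMMR, a spindle assembly factor, was at 39.2 and 43.7 CPM in shCtrl and at 22.5 and 20.7 CPM in shPML.

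Partners of transport motors centred above zero. Of 20, 19 were tested, 14 had a positive log2 fold change, beside 8406 of 16516 genes, and the median was 0.18. Both shPML values were over both shCtrl values for 5 of 19 (26.3%), against 23.1% of all genes. They were under them for 2 (10.5%), against 24.9%. None was called in edgeR without a block, against 0.333% of all genes lower and 0.0787% higher. There, 1 lower and 1 higher had an unadjusted p under 0.05, against 1669 and 1289 of 16516 genes. DESeq2 without a block called 1 higher (KLC4), against 3.6% of all genes. With the block 1 rose (KLC4) and 1 fell (MAPK8IP2), 5.26% each, against 8.57% and 10.5% of all genes. KLC4, a kinesin light chain that links conventional kinesin to cargo, was at 18.9 and 19.2 CPM in shCtrl and at 39.0 and 40.1 CPM in shPML, a log2 fold change of 1.05 (SE 0.15, edgeR adjusted p = 0.0618, with the block 5.16e-10). MAPK8IP2, a scaffold that binds the light chains, was at 3.49 and 2.17 CPM in shCtrl and at 0.767 and 1.24 CPM in shPML. KLC4 was close in both libraries of each group, and MAPK8IP2 was low throughout.

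Cytoplasmic dynein and dynactin, the machinery that moves cargo toward microtubule minus ends, had 26 of 28 genes tested and a median log2 fold change of 0.03. In edgeR 1 was called lower without a block (DYNLL2), against 0.333% of all genes. With the block 3 fell (BICD2, DYNLL2 and NDE1, 11.5%) and 1 rose (HOOK2, 3.85%), against 10.5% and 8.57% of all genes. DYNLL2, a dynein light chain, was at 69.0 and 69.9 CPM in shCtrl and at 25.3 and 26.4 CPM in shPML, a log2 fold change of -1.43 (SE 0.15, edgeR adjusted p = 0.0484). NDE1, a dynein regulator of the mitotic spindle, was at 26.7 and 26.5 CPM in shCtrl and at 13.9 and 16.6 CPM in shPML. HOOK2, a dynein adaptor, was at 24.6 and 32.3 CPM in shCtrl and at 39.5 and 53.3 CPM in shPML. BICD2, another adaptor, was at 37.5 and 53.6 CPM in shCtrl and at 23.3 and 32.1 CPM in shPML.

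The tubulins, which form the track itself, had 16 of 18 genes tested and a median log2 fold change of -0.26. In edgeR without a block 0 were called, against 0.333% of all genes lower and 0.0787% higher. At an unadjusted p under 0.05, 4 were lower and 2 higher, against 1669 and 1289 of 16516 genes. DESeq2 without a block called 2 lower and 1 higher, against 5.58% and 3.6% of all genes. With the block 5 fell (TUBA1B, TUBA1C, TUBB, TUBB2A and TUBB4B, 31.2%) and 2 rose (TUBA1A and TUBG2, 12.5%), against 10.5% and 8.57% of all genes. TUBA1B was at 2303 and 1987 CPM in shCtrl and at 1036 and 771.4 CPM in shPML, while the near-identical isotype TUBA1A was at 297.0 and 273.8 CPM in shCtrl and at 574.5 and 450.1 CPM in shPML. TUBB was at 3684 and 3895 CPM in shCtrl and at 2528 and 2494 CPM in shPML, and TUBG2, a gamma-tubulin of nucleation sites, at 12.9 and 12.9 CPM in shCtrl and 18.7 and 22.1 CPM in shPML. The isotypes share long stretches of sequence, so the assignment of their reads is uncertain.

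**Figure D5:**
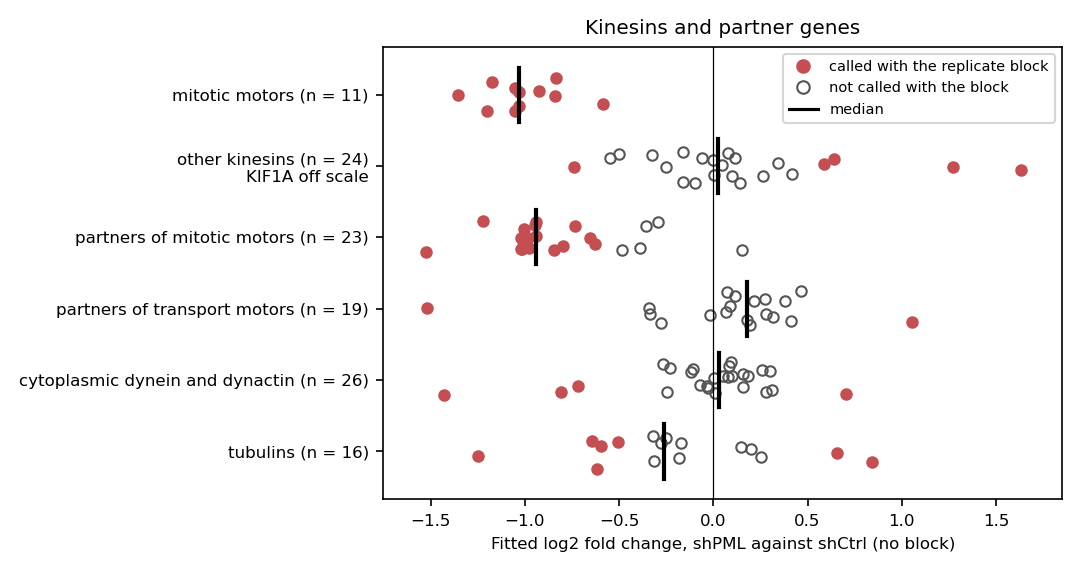
Fitted log2 fold change of shPML against shCtrl without a block (horizontal axis) for the tested mitotic motors, other kinesins and 4 partner lists, 1 point per gene with random vertical spread, filled where the gene was called with the replicate block, and a bar at each median. The mitotic motors and their partners centre at -1.03 and -0.94, and the other lists centre between -0.26 and 0.18.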

How the data were processed

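RNA of RCC4 cells was read from TruSeq stranded mRNA libraries. Per the submitters' processing notes, reads were trimmed with Trimmomatic 0.39, aligned with STAR to GRCh38 (hg38) and counted per gene with featureCounts 1.6.4, and the authors deposited the raw counts, which are not normalized. The release of the gene models and the strand setting of the counting are not given in the sources used here. The unnumbered columns of the table were taken as replicate 1.

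Counts were fitted over all genes with edgeR 4.0.16 in R 4.3.3 (TMM scaling, filterByExpr, quasi-likelihood test, Benjamini-Hochberg adjustment over 16516 genes), and genes were called at an adjusted p under 0.05 with a log2 fold change beyond 0.5 in size. SE is the log2 fold change over the square root of F. DESeq2 1.42.0 was the alternative tool. Replicate numbers were taken to mark the 2 experiments with separate infections, so a fit with the experiment as a block was made too. The deviations of the replicate 1 libraries from their group means correlated at 0.64 over genes. Common dispersion fell from 0.0813 to 0.0137 once the block was fitted. The fit with the block left few residual degrees of freedom, so its p-values lean on dispersion estimated across genes. CPM used TMM library sizes, and RPKM divided CPM by the exon length in the table. The lowest depth, 27781193 reads, puts 3 counts at 0.109 CPM. Values in every library are given for the mitotic motors, for other kinesins called in either edgeR fit, for the 3 most abundant others and for up to 4 called, non-overlapping genes per partner list. Other alternatives were RLE scaling, 2 other filters on low counts, other fold thresholds and leaving out each library. Some marker genes are not reported here. The members and lists were chosen with earlier results of these data known.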

Additional observations from a re-analysis of the deposited data

Results flagged for a closer look

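Values outside the comparisons stood out in shPML replicate 2. There the leukocyte markers summed to 140.8 CPM and the endothelial markers to 4.36 CPM, above every shCtrl library. The endothelial sum was almost all PECAM1, and no other endothelial marker was above both shCtrl libraries. KIF21A had a log2 ratio of shPML to shCtrl of -0.079 in experiment 1 and 0.11 in experiment 2, and KIF13B had -0.18 and 0.25. For both genes the 95% counting intervals lay on opposite sides of zero, and the difference between experiments was not tested.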

How the results depend on the processing

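The mitotic motors kept a negative log2 fold change in every fit that was run. Calls without a block depended on the tool and the filter. In the order kinesins, mitotic motors called lower and all genes, the counts as reported were 0, 0 and 68. They were 10, 10 and 1390 with DESeq2, 17, 11 and 3150 with the replicate block in edgeR, 14, 11 and 2295 with the block in DESeq2, 11, 10 and 1837 with no filter, and 1, 1 and 197 with at least 10 counts in every library. The other fold thresholds changed no count by over 1.5 times. Other kinesins called were 6, 3 and 1 with the block in edgeR, the block in DESeq2 and no filter. RLE scaling left 0 genes called (smallest adjusted p = 0.0501 in edgeR). Leaving out each library gave 0 to 248 genes in all, 248 without shPML replicate 1 and 0 without any of the others, and 0 mitotic motors each time, with 10 or 11 of 11 at an unadjusted p under 0.05. DESeq2 without shPML replicate 2, chosen after its leukocyte reads were seen, called 5 kinesins, 5 mitotic motors and 531 genes.

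Partners of mitotic motors called were 1 as reported, 18 with DESeq2, 18 with either block, 17 with no filter, 2 with the stricter filter, 0 with RLE, 0 to 1 without single libraries (0 without shCtrl replicate 1, shCtrl replicate 2 or shPML replicate 2) and 5 with DESeq2 without shPML replicate 2. For partners of transport motors the count was 0 as reported, 1 with DESeq2, 2 and 1 with the block in edgeR and DESeq2, and 1 with each filter and with DESeq2 without shPML replicate 2. For dynein and dynactin it was 1 as reported, 2 with DESeq2, 4 with each block, 0 with RLE, 4 with no filter, 0 in edgeR without each library in turn and 1 with DESeq2 without shPML replicate 2. For tubulins it was 0 as reported, 3 with DESeq2, 7 with each block, 2 with no filter and 2 with DESeq2 without shPML replicate 2.

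The mitotic median ranged from -1.18 to -0.89 over fits without 1 library, and was -0.91 with DESeq2 without shPML replicate 2. The median of the other kinesins ranged from -0.021 to 0.21 and changed sign without shCtrl replicate 2 (-0.0096) or shPML replicate 2 (-0.021, DESeq2 -0.011). Log2 fold changes near zero changed sign too. Without 1 library KIFC3 ranged from -0.57 to 0.0040 (positive without shPML replicate 1), KIF5B from -0.079 to 0.069 (negative without shCtrl replicate 1 at -0.029 or shPML replicate 2) and KIF1C from -0.17 to 0.32 (negative without shCtrl replicate 1 at -0.042 or shPML replicate 2). DESeq2 without shPML replicate 2 gave -0.069 for KIF5B and -0.16 for KIF1C, and the replicate block gave -0.00061 for KIF5B. The cause was not tested. The 7 kinesins below the filter, with at most 8 counts, cannot show a difference at this depth. Having 2 libraries per group limits every test, with or without the block.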
